A study of Mus musculus with 9 samples.

Results

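The laminin, nidogen and perlecan genes of the basement membrane were 10 in number, namely *Lama2*, *Lama3*, *Lama4*, *Lama5*, *Lamb1*, *Lamb2*, *Lamc1*, *Nid1*, *Nid2* and *Hspg2*. They were chosen by gene symbol, mapped from the Ensembl identifier, out of 55416 genes in the count table. The rule itself uses no measured value, but the list was drawn up with earlier results of these data known. RNA-Seq libraries were made from AdvSca1-SM cells in culture. These adventitial progenitors descend from smooth muscle, carry Sca1 and YFP, and were sorted from the combined aortas and carotid arteries of pooled 8-week-old SM22α-Cre-YFP mice and grown to passages 2 to 6. The Cre in these mice is driven by the smooth muscle gene *Tagln* (SM22α). Stem cells stayed in stem cell media, which the culture methods describe with 10% FBS, bFGF and EGF. TGF-β cells were growth-arrested for 24 h in 0.1% FBS and then received 5 ng/mL TGF-β1 in DMEM with 0.1% FBS. Both cells received the same TGF-β1 with 50 μM PFI-3, a bromodomain ligand of the chromatin remodeler Brg1. Every group was collected at 72 h, contained 0.1% DMSO and held 3 libraries. Medium, serum, growth factors and TGF-β1 therefore changed together between Stem and TGF-β and cannot be told apart, whereas TGF-β and Both differed in PFI-3.

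Basement membranes are thin sheets of matrix that lie under epithelia and endothelia and wrap each smooth muscle cell of the arterial wall. Laminins are trimers of an α, a β and a γ chain. Many of them polymerize at the cell surface, and they engage integrins and dystroglycan through the α chain. Nidogens and the heparan sulfate proteoglycan perlecan join the laminin sheet to the collagen IV network. The identity of the α and β chains distinguishes the laminins of muscle, vessels and epithelia.

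Promoter sequences are shown for 2 members that were higher in TGF-β than in Stem (*Lama2* and *Lamb2*) and for 2 that were lower (*Lamb1* and *Nid1*), so that the DNA upstream of genes that moved in opposite directions can be read beside their counts. Each is the run of 250 bases before the RefSeq gene start in build GRCm38.p6, 5′ to 3′ on the strand of the gene. Capitals mark the motifs found on either strand. *Lama2* lies at chr10:27616943-27617192 on the minus strand, *Lamb2* at chr9:108479612-108479861 on the plus strand, *Lamb1* at chr12:31265043-31265292 on the plus strand and *Nid1* at chr13:13437352-13437601 on the plus strand.
Lama2: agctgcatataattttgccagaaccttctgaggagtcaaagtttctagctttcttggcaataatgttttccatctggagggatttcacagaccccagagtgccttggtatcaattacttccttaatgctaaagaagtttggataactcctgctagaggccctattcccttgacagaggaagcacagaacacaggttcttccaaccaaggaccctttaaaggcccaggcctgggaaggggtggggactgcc
Lamb2: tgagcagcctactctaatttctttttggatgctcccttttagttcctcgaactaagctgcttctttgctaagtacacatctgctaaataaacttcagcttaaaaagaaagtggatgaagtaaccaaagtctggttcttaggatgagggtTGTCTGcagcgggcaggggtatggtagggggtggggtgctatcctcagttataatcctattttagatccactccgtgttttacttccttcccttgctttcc
Lamb1: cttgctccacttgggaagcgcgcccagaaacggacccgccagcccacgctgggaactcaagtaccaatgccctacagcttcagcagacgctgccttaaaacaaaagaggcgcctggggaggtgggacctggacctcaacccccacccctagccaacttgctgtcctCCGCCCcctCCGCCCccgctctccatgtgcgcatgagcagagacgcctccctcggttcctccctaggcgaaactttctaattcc
Nid1: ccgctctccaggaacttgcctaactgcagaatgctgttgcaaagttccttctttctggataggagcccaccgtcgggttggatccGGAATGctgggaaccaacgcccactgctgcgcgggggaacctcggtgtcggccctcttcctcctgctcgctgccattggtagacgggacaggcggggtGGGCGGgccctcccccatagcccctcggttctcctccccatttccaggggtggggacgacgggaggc

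The motifs searched on both strands were TATAAA, the GC box GGGCGG, the AP-1 element TGACTCA, the Smad elements GTCTAGAC and CAGACA, and the TEAD element GGAATG. No 2 marked motifs overlapped. The *Lamb1* window held 2 GC boxes, and the *Nid1* window held 1 GC box and 1 TEAD element. The *Lamb2* window held 1 CAGACA element on the opposite strand, and the *Lama2* window held none of the 6 motifs. Of 32851 mouse promoter windows of the same length, 32.7% held GGGCGG, 17.1% held CAGACA, 12.6% held GGAATG, 12.4% held TATAAA, 4.46% held TGACTCA and 0.167% held GTCTAGAC. *Lama5* and *Hspg2* were also higher in TGF-β than in Stem, and their windows, not printed, held 4 and 5 GC boxes. The GC content was 47.2% for *Lama2*, 43.6% for *Lamb2*, 62.0% for *Lamb1*, 64.4% for *Nid1*, 72.4% for *Lama5* and 70.0% for *Hspg2*, with a median of 52.4% over all windows. These letters are a description of the windows and do not show that a factor binds them.

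Total counts ranged from 35686291 to 37262375 in Stem, from 39453841 to 43194424 in TGF-β and from 42683050 to 47741128 in Both. All 10 genes were among the 14879 that passed edgeR's filter on low counts. Values below are normalized counts, which are read counts scaled to a common library size. Spearman correlations between replicate libraries, taken across genes, were 0.995 to 0.998. Stem replicate 2 stood apart from the other Stem libraries, with a chi-square per gene of 123 and 101 against them, while the other pairs of replicates had 5.70 to 15.6. It was the highest Stem library for 9 of the 10 members and the lowest for *Hspg2*. All 3 progenitor markers (*Ly6a*, *Cd34* and *Pdgfra*) were detected and were lower in TGF-β, where their summed level was 6253 to 6561 normalized counts against 49640 to 57308 in Stem and 6728 to 7390 in Both. The 5 smooth muscle markers summed to 10110 to 12817 in Stem, 22400 to 24827 with TGF-β and 17141 to 18069 in Both. Of these 5, *Acta2* and *Tagln* were higher and *Myh11* was lower in TGF-β than in Stem past 2-fold, and *Cnn1* and *Smtn* did not pass. Of markers for other cells that make basement membrane, 0 of 6 epithelial markers passed the filter, with sums of 1.05 to 13.2 over all libraries. Of 7 endothelial markers, 4 passed, with sums of 115 to 252 in Stem, 60.4 to 93.7 with TGF-β and 52.7 to 70.1 in Both. *Emcn* and *Tek* were lower in TGF-β than in Stem past 2-fold, *Vwf* did not pass, and *Kdr* was higher, with group means of 0.721 in Stem and 26.1 in TGF-β. The endothelial genes *Pecam1*, *Cdh5* and *Tie1* had group means of at most 8.80. Of 4 Schwann cell markers, 3 passed, with sums of 158 to 210 in Stem, 557 to 650 with TGF-β and 405 to 443 in Both; *S100b* rose with TGF-β, and *Sox10* was at 0 in every group. Of 5 macrophage markers, 3 passed, with sums of 140 to 152 in Stem, 178 to 219 with TGF-β and 291 to 307 in Both. *Csf1r* and *Cd68* were higher in TGF-β than in Stem past 2-fold, and *Lyz2* did not pass. Group means in Stem, TGF-β and Both were 28.5, 76.1 and 138 for *Csf1r* and 3.53, 13.2 and 14.3 for *Cd68*. For *Lyz2* they were 114, 109 and 145. *Adgre1* was at 0 and *Ptprc* had group means of at most 2.37. The 6 hepatocyte markers, checked because a label mentions hepatic tissue, summed to at most 2.63 in any library. The part of these other cell types in the results was not tested, and in bulk RNA fewer cells of a type and less RNA per cell cannot be told apart.

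The laminin α chains moved in opposite directions between Stem and TGF-β. *Lama2* rose 3.00-fold and *Lama4* fell 3.08-fold, so that *Lama4* led the α chains in Stem and *Lama2* in TGF-β. With PFI-3, *Lama2* fell by 30.7%, the largest fall among the 10 members.

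*Lama2*, which encodes the α2 chain of muscle and peripheral nerve laminins, stood at 3077, 4013 and 3438 normalized counts in the 3 Stem libraries, at 9974, 11073 and 10531 in TGF-β, and at 7003, 7536 and 7338 in Both. Every Both library lay below every TGF-β library and above every Stem library. The log2 fold change from Stem to TGF-β was 1.58 (SE 0.080; adjusted p = 2.87e-09, quasi-likelihood test of edgeR, adjusted over all tested genes by Benjamini-Hochberg, as for every adjusted p below). From TGF-β to Both it was -0.53 (SE 0.077; adjusted p = 0.00133), and from Stem to Both it was 1.06 (SE 0.079; adjusted p = 1.29e-07). The last value lay close to the 2-fold limit, and was 0.97 without Stem replicate 1.

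*Lama4*, which encodes the α4 chain of vascular and mesenchymal laminins, had 12088, 12563 and 12163 normalized counts in Stem libraries. It had 3931, 4166 and 3859 in TGF-β and 3522, 3517 and 3564 in Both. The 3 groups did not overlap, and the gap between Stem and the other groups was far wider than that between TGF-β and Both. The fitted log2 fold change was -1.62 from Stem to TGF-β (SE 0.039; adjusted p = 4.72e-12) and -0.17 from TGF-β to Both (SE 0.039; adjusted p = 0.0168). The second call was lost without TGF-β replicate 2 (adjusted p = 0.0863), without Both replicate 1 (adjusted p = 0.0712) and without Both replicate 3 (adjusted p = 0.0513).

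*Lama5*, whose α5 chain is found in epithelial and endothelial basement membranes, was counted at 1043, 1529 and 1169 in Stem, 1843, 2059 and 1817 with TGF-β, and 1699, 1808 and 1894 in Both. Stem lay below the other groups, which overlapped each other. *Lama5* rose by 0.61 on the log2 scale from Stem to TGF-β (SE 0.11; adjusted p = 0.000291). Between TGF-β and Both the difference was -0.08 with a 95% interval from -0.32 to 0.15 (adjusted p = 0.706).

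*Lama3*, which encodes the α3 chain of epithelial laminins, was near the limit of detection after stimulation. Its normalized counts were 18.8, 79.3 and 42.2 in Stem, 7.55, 6.09 and 6.83 with TGF-β, and 12.6, 5.92 and 14.0 in Both. The Stem libraries spread over a wide range, with replicate 2 highest, and TGF-β and Both overlapped. The fall from Stem to TGF-β was -2.75 on the log2 scale (SE 0.54; adjusted p = 0.000528) and -2.13 without Stem replicate 2. The interval from TGF-β to Both, -0.80 to 2.16, was too wide at this depth to show a direction (adjusted p = 0.599).

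**Figure D1:**
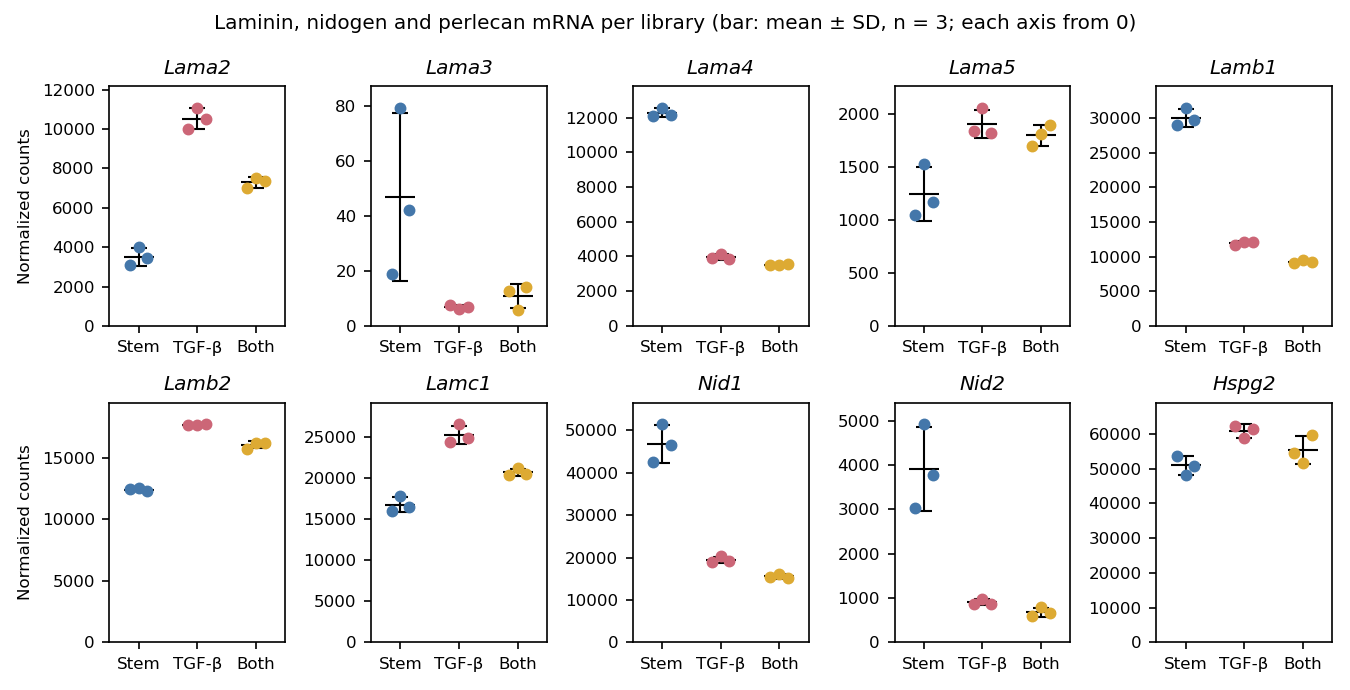
Normalized counts (vertical axes, each starting at 0) of the 10 members in the 9 libraries, with 1 point per library and the mean ± SD of 3 libraries in black. *Lama2*, *Lama5*, *Lamb2*, *Lamc1* and *Hspg2* are highest in TGF-β, whereas *Lama3*, *Lama4*, *Lamb1*, *Nid1* and *Nid2* are highest in Stem.

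The β chains diverged in the same comparison. *Lamb1* fell 2.51-fold from Stem to TGF-β while *Lamb2* rose 1.43-fold, and both fell when PFI-3 was added. *Lamb1*, which encodes the widely expressed β1 chain, had 29006, 31499 and 29717 normalized counts in Stem libraries, 11750, 12068 and 12172 with TGF-β, and 9051, 9514 and 9211 in Both. Its groups were ordered Stem, TGF-β, Both without overlap. The log2 fold change was -1.33 from Stem to TGF-β (SE 0.041; adjusted p = 3.90e-11) and -0.37 from TGF-β to Both (SE 0.041; adjusted p = 0.000217). *Lamb2*, which encodes the β2 chain of the neuromuscular junction, the kidney glomerulus and vessel walls, had 12437, 12523 and 12291 in Stem, 17683, 17670 and 17737 with TGF-β, and 15766, 16229 and 16241 in Both. Both lay between the other groups without overlap. *Lamb2* rose by 0.51 on the log2 scale with TGF-β (SE 0.033; adjusted p = 3.10e-08). With PFI-3 it fell by 0.14 on the log2 scale (SE 0.033; adjusted p = 0.0222), a call that was lost when any single library of the TGF-β group, Both replicate 1 or Both replicate 3 was left out, with adjusted p between 0.0612 and 0.116 in those fits.

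*Lamc1*, which encodes the γ1 chain shared by most laminins, rose by 50.4% from Stem to TGF-β and fell by 0.29 on the log2 scale when PFI-3 was added. Its normalized counts were 16048, 17871 and 16476 in Stem, 24404, 26568 and 24843 with TGF-β, and 20438, 21246 and 20512 in Both. The groups did not overlap, and Both was intermediate. The log2 fold change was 0.59 from Stem to TGF-β (SE 0.049; adjusted p = 2.93e-07) and -0.29 from TGF-β to Both (SE 0.048; adjusted p = 0.00354).

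Because most laminins need a γ1 chain, the chain classes were set side by side as normalized counts per kilobase of the longest annotated transcript. In Stem the summed α chains were 1.14 ± 0.01 (SD, n = 3) times the *Lamc1* level and the summed β chains 3.36 ± 0.08 times. In TGF-β the ratios were 0.580 ± 0.002 for α chains and 1.58 ± 0.07 for β chains, and in Both they were 0.552 ± 0.011 and 1.64 ± 0.02. Per kilobase, the summed α level declined from 2509 in Stem to 1922 in TGF-β and 1502 in Both on average, although *Lama2* rose from 365 to 1095 and then stood at 759, and *Lama5* rose from 110 to 167 and then stood at 158. These ratios compare mRNA levels and were not tested. They also rest on the longest transcript lengths and were not recomputed with coding lengths. Longest coding and transcript lengths were 4821 and 7622 bases for *Lamc1*, but 5448 and 6046 for *Lama4*. Coding lengths would therefore lower the ratios to *Lamc1*. Whether the summed α chains exceed *Lamc1* in Stem thus depends on the length used.

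**Figure D2:**
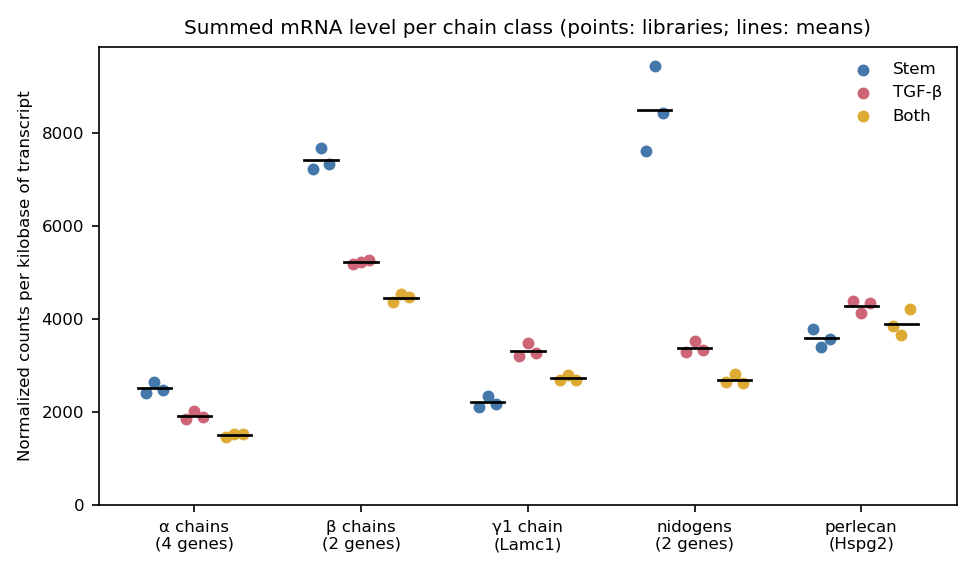
Normalized counts per kilobase of transcript (vertical axis from 0) summed over each chain class, with 1 point per library and a line at the mean of 3 libraries. The α and β sums and the nidogen sum are highest in Stem, and *Lamc1* and *Hspg2* are highest in TGF-β.

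The composition of the laminin mRNA pool shifted in the same comparison. *Lama4* made up 81.0% ± 2.0 (SD, n = 3) of α chain counts per kilobase in Stem, 34.3% ± 0.7 with TGF-β and 38.9% ± 0.9 in Both. The *Lama2* share was 14.5% ± 1.3, 57.0% ± 0.9 and 50.5% ± 0.8 in the same order. *Lama5* took 4.34% ± 0.67, 8.70% ± 0.26 and 10.5% ± 0.4. The share of *Lama3* was at most 0.174% on average in any group. *Lamb2* made up 29.8% ± 0.8 of β chain counts per kilobase in Stem, 60.3% ± 0.4 with TGF-β and 64.1% ± 0.4 in Both. For the *Lama2*, *Lama4*, *Lama5* and *Lamb2* shares, no library of a group overlapped another group in any of the 3 comparisons. The exact two-sided permutation test gave p = 0.1 for each, which is the smallest p that 3 libraries against 3 can give, so an adjusted value cannot be smaller. With PFI-3 the *Lama2* share thus stood 6.47 percentage points lower than with TGF-β alone. The *Lama4*, *Lama5* and *Lamb2* shares stood 4.62, 1.82 and 3.84 points higher. In level, *Lama4*, *Lama5* and *Lamb2* did not rise with PFI-3, with log2 fold changes from TGF-β to Both of -0.17, -0.08 and -0.14.

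**Figure D3:**
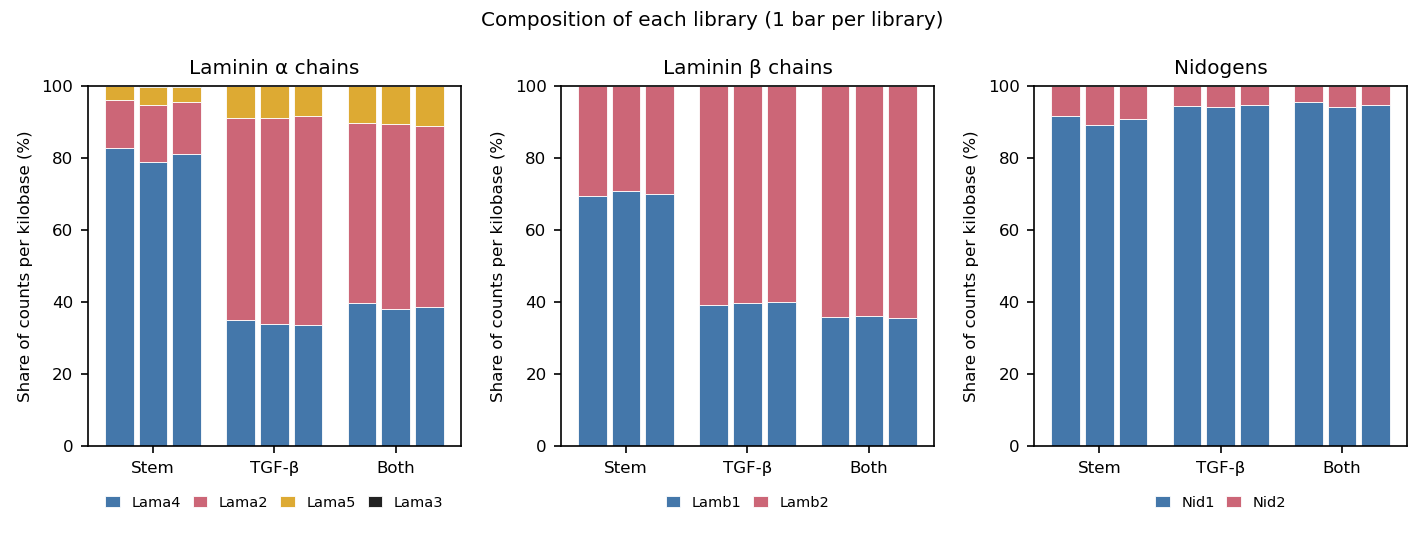
Share of counts per kilobase (vertical axis, %) of each α chain among the 4 α chains, of each β chain among the 2 β chains and of each nidogen among the 2 nidogens, with 1 stacked bar per library. *Lama4* fills 81.0% of the α bars on average in Stem and 34.3% in TGF-β, and *Lamb2* fills 29.8% and 60.3% of the β bars.

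The nidogen genes were lower in TGF-β than in Stem. *Nid1* fell 2.41-fold and *Nid2* 4.32-fold, and with PFI-3 *Nid1* again fell by 20.0%. *Nid1*, the principal nidogen, which binds the γ1 chain, had 42498, 51383 and 46561 normalized counts in Stem libraries, 18892, 20255 and 19236 with TGF-β, and 15357, 16204 and 15132 in Both. The groups were ordered Stem, TGF-β, Both without overlap. Its log2 fold change was -1.27 from Stem to TGF-β (SE 0.062; adjusted p = 2.43e-09) and -0.32 from TGF-β to Both (SE 0.062; adjusted p = 0.00731).

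*Nid2*, a related linker protein, had 3035, 4920 and 3784 normalized counts in Stem libraries, 865, 987 and 863 with TGF-β, and 585, 790 and 658 in Both. No 2 groups overlapped. The log2 fold change from Stem to TGF-β was -2.11 (SE 0.15; adjusted p = 9.29e-08). From TGF-β to Both it was -0.42 with a 95% interval from -0.77 to -0.07 and an adjusted p of 0.137, which does not pass. In a fit of only the 6 TGF-β and Both libraries the same difference had an adjusted p of 0.0132. *Nid2* made up 9.36% ± 1.25 (SD, n = 3) of nidogen counts per kilobase in Stem, 5.49% ± 0.22 with TGF-β and 5.15% ± 0.60 in Both, and the TGF-β and Both shares overlapped (exact two-sided permutation p = 0.5). The exons of *Nid2* share 437 bases with *Rtraf* on the opposite strand, and *Rtraf* averaged 2357 normalized counts in Stem libraries, 3486 with TGF-β and 3653 with PFI-3 added. The paper names a stranded library kit, but whether the counting used strand is not given in the sources used here, so the level of *Nid2* is uncertain.

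*Hspg2*, which encodes perlecan, had the narrowest range of group means of the 10 members on the log2 scale. Its normalized counts were 53716, 48268 and 50704 in Stem, 62286, 58677 and 61521 with TGF-β, and 54612, 51741 and 59632 in Both. TGF-β lay above Stem without overlap, and Both overlapped each of the other groups. The log2 fold change was 0.26 from Stem to TGF-β (SE 0.057; adjusted p = 0.00141), a call that was lost when libraries were scaled by total counts (adjusted p = 0.0782). From TGF-β to Both it was -0.14 with a 95% interval from -0.26 to -0.01 (adjusted p = 0.167), and from Stem to Both it was 0.12 (adjusted p = 0.0752). The last difference passed without Stem replicate 1 (adjusted p = 0.0202), without Both replicate 2 (adjusted p = 0.0212), and also with no filter on low counts (adjusted p = 0.0143) and with the replicate block (adjusted p = 0.0177).

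As levels per kilobase, *Nid1* was the highest of the 10 members in Stem (7686 on average), followed by *Lamb1* at 5200 and *Hspg2* at 3587. *Lamb2* and *Lamc1* came next and overlapped, above *Lama4*, *Nid2*, *Lama2*, *Lama5* and *Lama3*. In TGF-β *Hspg2* led at 4288, above *Lamc1*, *Nid1* and *Lamb2*, whose neighbours in the order overlapped, then *Lamb1*, *Lama2* and *Lama4*, then *Nid2* and *Lama5*, which overlapped, and *Lama3* last. In Both the order was *Hspg2* at 3900, *Lamb2*, *Lamc1*, *Nid1*, *Lamb1*, *Lama2* and *Lama4*, then *Lama5* and *Nid2*, which overlapped, and *Lama3*. These orders rest on the longest transcript lengths and were not recomputed with coding lengths. Longest coding and transcript lengths were 4821 and 7622 bases for *Lamc1*, 3735 and 6091 for *Nid1*, and 13149 and 14187 for *Hspg2*. Coding lengths would therefore raise *Lamc1* and *Nid1* relative to *Hspg2*, and the order can change. Summed over the 10 genes, the share of the library's counts was 4523 to 4568 CPM in Stem, 3562 to 3618 CPM in TGF-β and 3023 to 3203 CPM in Both.

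**Figure D4:**
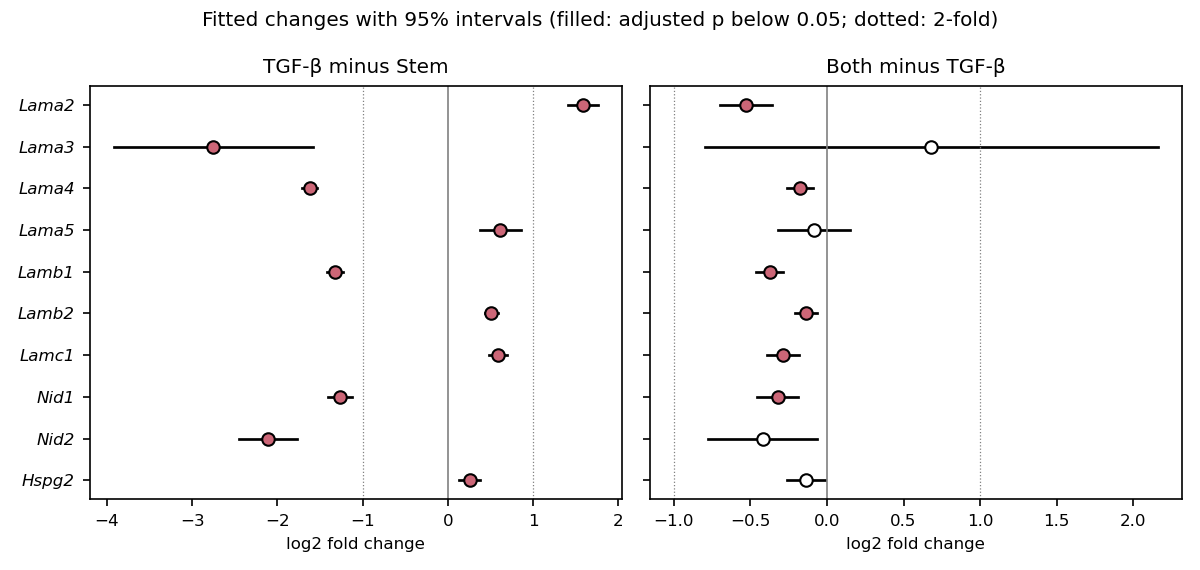
Fitted log2 fold changes (horizontal axes, which differ in scale) with 95% intervals for the 10 members from Stem to TGF-β (left) and from TGF-β to Both (right). Filled points have an adjusted p below 0.05 and dotted lines mark 2-fold; 6 members pass 2-fold on the left and 0 on the right.

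From Stem to TGF-β, 1 member (*Lama2*) was higher and 5 (*Lama3*, *Lama4*, *Lamb1*, *Nid1* and *Nid2*) were lower at an adjusted p below 0.05 and past 2-fold, against 10.6% and 14.5% of all tested genes. Without the 2-fold minimum, 5 were higher and 5 lower, against 37.3% and 37.7% of all genes. All 10 had groups without overlap, as did 76.8% of all genes. The median log2 fold change was -0.50 for the members and -0.0027 for all genes. Without Stem replicate 2, 1 member was higher and 5 were lower past 2-fold.

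From TGF-β to Both, 0 members passed 2-fold with edgeR or with DESeq2, where 0.161% of all genes were higher and 0.47% lower. At an adjusted p below 0.05 alone, 6 members (*Lama2*, *Lama4*, *Lamb1*, *Lamb2*, *Lamc1* and *Nid1*) were lower, against 5.38% of all genes. With edgeR, 0 members were higher, against 3.54% of all genes, and DESeq2 gave 6 lower and 0 higher. At an unadjusted p under 0.05, 8 members were lower and 0 were higher, against 12.5% and 11.5% of all genes. Groups did not overlap for 7 members and for 32.7% of all genes. The median log2 fold change was -0.23 for the members and -0.0020 for all genes. The count of 6 was 4 without TGF-β replicate 2, without Both replicate 1 or without Both replicate 3, and 5 without TGF-β replicate 1 or 3.

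Compared with Stem, Both had 1 member higher (*Lama2*) and the same 5 members lower past 2-fold, against 9.55% and 13.2% of all genes. At an adjusted p below 0.05 alone, 4 were higher and 5 lower, against 36.6% and 36.6% of all genes, and *Hspg2* did not pass. Groups did not overlap for 9 members and for 74.7% of all genes. The median log2 fold change was -0.73 for the members and -0.0046 for all genes. The 3 comparisons share libraries, so their values for a member are not independent of each other.

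Further laminin chain genes examined were *Lama1*, *Lamb3* and *Lamc3*, and all 3 rose from Stem to TGF-β, with 2 of 3 past 2-fold. Among all tested genes, 37.3% were higher by adjusted p alone and 10.6% past 2-fold. *Lamc3*, which encodes the γ3 chain, had 3.14, 4.35 and 1.08 normalized counts in Stem, near the floor of 3 counts, and 22.7, 29.4 and 36.1 with TGF-β, a log2 fold change of 3.31 (SE 0.38; adjusted p = 6.31e-06). *Lamb3*, which encodes the β3 chain of epithelial laminins, had 28.3, 26.1 and 28.1 normalized counts in Stem libraries, 79.9, 47.7 and 63.5 with TGF-β, and 44.1, 50.3 and 57.9 in Both. TGF-β lay above Stem without overlap and overlapped Both, and the log2 fold change from Stem to TGF-β was 1.20 (SE 0.22; adjusted p = 0.000319). Summed, the 3 genes stood at 106 to 131 normalized counts in Stem and 218 to 273 in TGF-β. With PFI-3, 0 of 3 passed with edgeR, and 1 was lower at an unadjusted p under 0.05, against 12.5% of all genes.

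The network-forming and associated collagens, which nidogens and perlecan join to laminin, numbered 8. From Stem to TGF-β, 4 rose past 2-fold, against 10.6% of all tested genes. By adjusted p alone 6 rose and 1 fell, against 37.3% and 37.7% of all genes. The median log2 fold change of the list was 1.09. *Col4a3* had at most 1.08 normalized counts in any Stem library and averaged 25.0 in TGF-β, at least 7.78-fold higher when Stem is set to the floor of 3 counts per library. *Col4a4*, which assembles with it, rose by 2.73 on the log2 scale (adjusted p = 4.03e-07). *Col4a1*, the main collagen IV chain, had 28090, 28908 and 27792 normalized counts in Stem libraries, 91245, 93220 and 95089 with TGF-β, and 72161, 72182 and 70880 in Both. *Col4a1* was thus higher in TGF-β without overlap (log2 fold change 1.72, adjusted p = 2.40e-12) and intermediate in Both. *Col4a2*, its partner chain, rose by 1.58 on the log2 scale (adjusted p = 6.43e-12). With PFI-3, 7 of 8 fell by adjusted p, against 5.38% of all genes. Past 2-fold 1 (*Col15a1*) fell, against 0.47% of all genes, by -1.14 on the log2 scale (adjusted p = 1.00e-06). The median of the list was -0.60.

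Other proteins of the basement membrane had members moving in both directions from Stem to TGF-β. Of 15, 13 were tested, and 5 rose and 4 fell past 2-fold, against 10.6% and 14.5% of all tested genes. *Frem1*, which encodes a matrix protein of the epithelial basement membrane zone, changed by -3.95 on the log2 scale (adjusted p = 5.43e-09), whereas *Ntn4*, a netrin that binds laminin γ1, rose by 3.88 (adjusted p = 4.77e-12). Of the hemicentin genes, *Hmcn2* rose by 2.37 (adjusted p = 5.30e-06) and *Hmcn1* changed by -2.14 (adjusted p = 0.000301). Several of these levels were low. Mean normalized counts in Stem and TGF-β were 133 and 8.51 for *Frem1*, and 121 and 1779 for *Ntn4*. They were 9.25 and 48.5 for *Hmcn2*, and 43.9 and 9.87 for *Hmcn1*. With PFI-3, 0 passed 2-fold, and 2 rose and 2 fell by adjusted p alone, against 3.54% and 5.38% of all genes.

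Of 8 laminin receptor genes, 2 rose past 2-fold from Stem to TGF-β, against 10.6% of all tested genes. By adjusted p alone 6 rose and 1 fell, against 37.3% and 37.7% of all genes. *Itga6*, an integrin α subunit that binds laminins, had 27.2, 26.1 and 30.3 normalized counts in Stem libraries, 312, 383 and 382 with TGF-β, and 222, 327 and 298 in Both. *Itga6* was higher in TGF-β without overlap with Stem (log2 fold change 3.68, adjusted p = 3.14e-09), and TGF-β overlapped Both. *Itga7*, the integrin α7 subunit of muscle, rose by 1.94 on the log2 scale (adjusted p = 3.82e-09). With PFI-3, 1 receptor gene rose and 2 fell by adjusted p, against 3.54% and 5.38% of all genes, and 0 passed 2-fold.

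Enzymes that build the laminin-binding sugar of dystroglycan had 0 of 12 genes past 2-fold in either comparison. By adjusted p alone, 7 rose and 3 fell from Stem to TGF-β, against 37.3% and 37.7% of all tested genes. With PFI-3 added 2 rose, against 3.54% of all genes. Of 14 heparan sulfate enzymes, which make or trim the chains carried by perlecan, 2 rose and 1 fell past 2-fold from Stem to TGF-β. The shares of all tested genes past 2-fold were 10.6% higher and 14.5% lower. The heparanase gene *Hpse* changed by -1.67 on the log2 scale (adjusted p = 5.88e-08). The sulfatase gene *Sulf1* rose by 1.42 (adjusted p = 2.15e-11) and *Xylt1*, which starts the chain, by 1.21 (adjusted p = 3.98e-09). With PFI-3, 1 rose and 1 fell by adjusted p alone, against 3.54% and 5.38% of all genes.

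The median log2 fold change from Stem to TGF-β was 1.20 for the further laminin chains, -0.22 for the other basement membrane proteins, 0.65 for the receptors, 0.19 for the dystroglycan sugar enzymes and 0.06 for the heparan sulfate enzymes, beside -0.0027 for all genes. From TGF-β to Both the medians were -0.45, 0.0080, -0.16, -0.0078 and -0.0066 in the same order, beside -0.0020 for all genes.

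**Figure D5:**
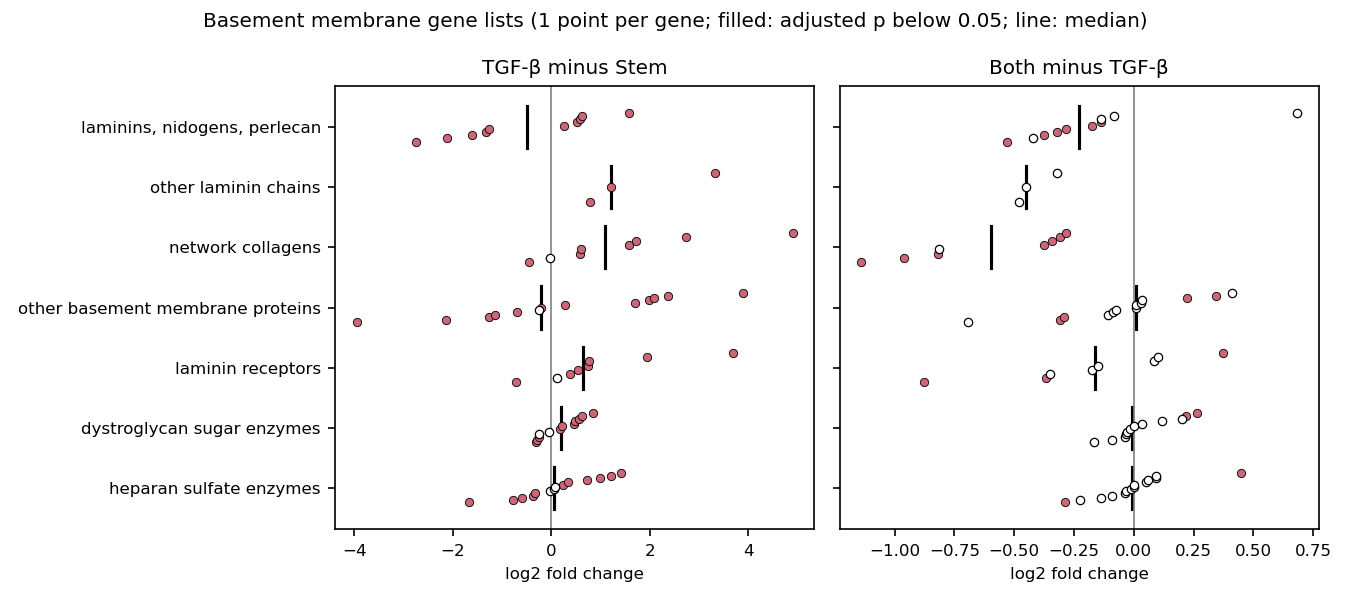
Log2 fold changes (horizontal axes, which differ in scale) of each tested gene in the members and 6 other basement membrane lists, from Stem to TGF-β (left) and from TGF-β to Both (right). Filled points have an adjusted p below 0.05 and lines mark medians; the collagen median is 1.09 on the left and -0.60 on the right, and the members' medians are -0.50 and -0.23.

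The genes most like a member were sought among 10890 tested genes with at least 100 normalized counts on average, by Euclidean distance between centred log2 values over the 9 libraries. They are named for the 3 members with the widest range of group means on the log2 scale among the 9 members that also reached 100. *Lama3*, which averaged 21.5, had a wider range of group means on this scale than *Lama4* and *Lamb1* but did not reach 100. Nearest to *Nid2* were *Gcnt1*, *Lbp* and *Pygm*, at distances of 0.473, 0.502 and 0.526. Nearest to *Lama4* were *Ank3*, *Nav3* and *Thra*, at 0.160, 0.186 and 0.198. Nearest to *Lamb1* were *Anpep*, *Marcksl1* and *Obsl1*, at 0.195, 0.221 and 0.263.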

How the data were processed

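RNA-Seq was measured in 9 libraries, 3 per group, made from rRNA-depleted total RNA with a stranded kit. The values the authors deposited are whole-number read counts for each Ensembl gene and library, with no normalization applied. The paper names Flexbar and STAR on GRCm39, whereas the submitters' processing notes name HISAT2 2.2.1, SAMtools 1.13 and HTSeq 0.11.3 on GRCm39; the sources differ, and neither the strand setting nor the handling of multiply aligned reads is given in the sources used here. Near-identical sequences can therefore share reads, as can genes that overlap on opposite strands if the counting ignored strand.

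Tools were R 4.3.3, edgeR 4.0.16 (on limma 3.58.1) and, for 1 alternative, DESeq2 1.42.0. Genes passing filterByExpr were scaled by TMM (factors 0.967 to 1.08) and compared by the quasi-likelihood test of edgeR, with 1 model over the 9 libraries and no covariate besides group. Calls used an adjusted p below 0.05 (Benjamini-Hochberg) and a log2 fold change beyond 1 in size, the limits of the study, whose methods name DESeq2. For normalized counts, each library was brought to the average effective (TMM) library size, 41184338 counts, at which 3 counts correspond to 2.63 to 3.26. Shares used counts per kilobase of the longest GENCODE vM21 transcript, of build GRCm38, and an exact two-sided permutation test. Intervals cover 95%. The study calls its replicates independent, but the mice were pooled, so p-values measure only the spread between these samples.

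The members and the gene lists were chosen with earlier results of these data known. All members are named; of each list, up to 4 genes past the threshold may be named, the largest first, and some further markers and list members were named after their values were seen. RefSeq promoters (GRCm38.p6) were matched by symbol and could be used for 6 of 10 members. *Lama4*, *Lamc1*, *Nid2* and *Lama3* have no sequence here, and no gene coordinates of GRCm39 are given. The pipeline was tested on simulated data. Alternatives were DESeq2, its size factors, total counts, no filter, the 6 libraries compared, a replicate block, no fold minimum, edgeR's TREAT, a GC and length correction alone and with the block, other lengths for shares, and leaving out each library. Counts by adjusted p alone were run under the same alternatives after the data were seen. Results for items withheld for evaluation are not reported here.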

Additional observations from a re-analysis of the deposited data

How the results depend on the processing

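Under scaling by total counts, the median change over all genes was -0.12 on the log2 scale from Stem to TGF-β and -0.11 from Stem to Both. This scaling ended the only call past 2-fold higher in Both than in Stem, leaving 0 members (*Lama2*, 0.95). That count was also 0 under TREAT, where *Lama2* had an adjusted p of 0.486, and ranged from 0 to 1 when single libraries were left out, with 0 without Stem replicate 1. With no fold-change minimum the counts were 5 higher from Stem to TGF-β, 6 lower from TGF-β to Both and 4 higher from Stem to Both. No result reversed its direction. Of the recomputed counts and shares, 318 were labelled the same and 6 counts moved. A count was the same if it equalled its main value or stayed within 1.5 times of it. A share was the same if the difference between groups kept its sign, so shares were checked for direction only. From TGF-β to Both, the adjusted p of *Lamb2* was 0.0557 with total counts, 0.0523 with no filter and 0.0836 with the GC and length correction. That of *Nid2* was 7.00e-06 with no filter. The cause of these changes was not tested.

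Deviations of same-numbered libraries had correlations of -0.05 to 0.20 over the 3 comparisons. For replicate 2 they were positive in each comparison (0.17 for Stem and TGF-β, 0.14 for TGF-β and Both, 0.20 for Stem and Both). For replicate 1 they were 0.11, 0.0089 and 0.010, and for replicate 3 they were 0.02, -0.05 and -0.04, in the same order. Libraries of different numbers had correlations from -0.18 (Stem replicate 1 with Both replicate 2) to 0.17 (Stem replicate 1 with Both replicate 3). What a replicate number shares is not given, and a shared factor was not tested. With the replicate block the counts past 2-fold were 1 higher and 5 lower from Stem to TGF-β, 0 and 0 from TGF-β to Both, and 1 and 5 from Stem to Both, and 8 members were lower from TGF-β to Both by adjusted p alone, where *Nid2* (adjusted p = 0.00284) and *Hspg2* (adjusted p = 0.0391) joined the 6. From Stem to Both the block gave 5 members higher by adjusted p alone, *Hspg2* being added (adjusted p = 0.0177). The depth limits *Lama3*, with at most 14.0 normalized counts in any stimulated library.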
